A study of Mus musculus with 4 samples.

Results

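Ciliated airway nuclei were chosen from 2 joint RNA and chromatin libraries of sorted mouse lung epithelium as nuclei with at least 5 UMIs (counted RNA molecules) summed over 7 genes of motile cilia: Dnah12, Dnah6 and Dnah3 (inner arm dynein heavy chains), Dnah5 (an outer arm dynein heavy chain), Spag17 (central pair apparatus), Cfap44 (an axonemal protein) and Rgs22. Among 15473 kept nuclei, 165 met the rule, 147 of 8129 in the library labelled CKO and 18 of 7344 in the Control library. Kept nuclei had 500 to 25000 UMIs, at least 300 genes and under 30% mitochondrial UMIs. The CKO genotype was SftpcCreERT2; Rosa26mTmG; IPF/F, in which the gene of IP, the receptor for prostaglandin I2 (Ptgir), is floxed, and the Control genotype was SftpcCreERT2; Rosa26mTmG. Both groups thus carried a tamoxifen-dependent Cre at the surfactant protein C gene and a membrane reporter that turns green after recombination, both were male, both received bleomycin, which injures the lung's alveoli, and both were sampled at day 8 and sorted for GFP as alveolar type 2 (AT2) cells. The Cre is driven by an AT2 gene, so neither the sort nor the deletion was directed at ciliated cells. How many mice entered each library is not given in the sources used here. Each genotype had 1 joint library, so differences between genotypes are unreplicated and were not tested; the 95% intervals below cover counting error only.

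Multiciliated cells line the airways and move mucus by beating motile cilia. Each motile cilium is built on an axoneme of doublet microtubules around a central pair. Outer and inner dynein arms slide the doublets, while radial spokes, the central pair apparatus and the nexin-dynein regulatory complex control the beat. Intraflagellar transport carries parts into the cilium, and the BBSome and the transition zone guard its base. Multicilin and the geminin-like factor Gmnc start the program, deuterosomes amplify the centrioles that become basal bodies, and FOXJ1 with RFX factors switches on the genes of the axoneme.

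The libraries labelled CKO and Control held 10925 and 13569 barcodes, 30818808 and 48378328 UMIs, and 37365247 and 47307986 counts in peaks of open chromatin. Ciliated nuclei held 897630 nuclear-encoded UMIs and 665080 peak counts in the library labelled CKO, against 119129 UMIs and 53469 peak counts in Control, so that values of Control ciliated nuclei are the less precise. Ciliated nuclei were deeper than the others, with a median of 6405 UMIs against 2647.5 in other nuclei of the library labelled CKO and 6877.5 against 2938 in Control. The libraries shared 193 barcodes, of which none was a ciliated nucleus in both, and 4 ciliated barcodes of the library labelled CKO were also deposited in Control. Ptgir, the floxed gene, had 0 UMIs in ciliated nuclei of either library, which allows up to 3.34 CPM (UMIs of a gene scaled to a common total of nuclear-encoded UMIs) in the library labelled CKO and 25.2 CPM in Control. Other nuclei held 9 and 2 Ptgir UMIs in the libraries labelled CKO and Control, too few to check the genotype labels.

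The ciliated share of kept nuclei was 1.81% with the CKO label (exact Clopper-Pearson interval 1.53 to 2.12%), against 0.245% with the Control label (0.145 to 0.387%), a ratio of 7.38 (4.51 to 12.8). Their marker sums had a median of 51 UMIs (range 5 to 220) in the library labelled CKO and 41.5 (5 to 174) in Control. The sums fell into a low and a high range with few nuclei between. In Control the threshold of 5 cut the low range, since 6 Control nuclei held 5 to 7 marker UMIs and the next held 32. Exactly 5 marker UMIs were held by 2 CKO-labelled nuclei and 1 Control nucleus just inside it, and exactly 4 by 5 CKO-labelled nuclei and 9 Control nuclei just outside it. With at least 10 marker UMIs, 139 nuclei of the library labelled CKO and 12 of Control remained, a ratio of shares of 10.5 (5.80 to 20.7). Leukocyte-marked nuclei, those with at least 3 UMIs of 5 leukocyte genes, were 25.1% of the kept nuclei with the CKO label and 4.86% with the Control label, so nuclei of another cell type outside the AT2 gate also took a larger share of the library labelled CKO; the part of the sort in the ciliated share was not tested.

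**Figure D1:**
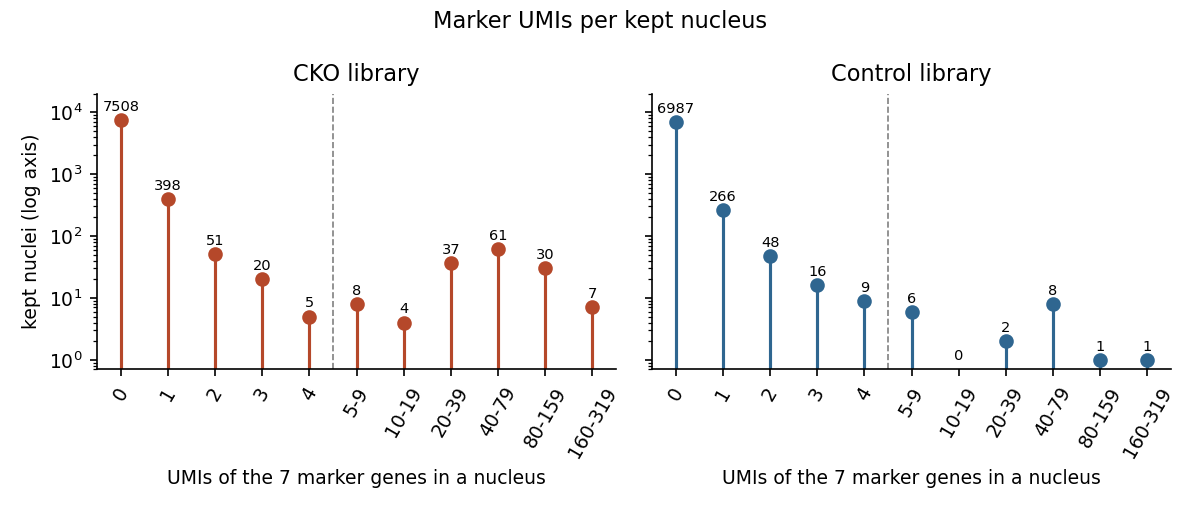
Number of kept nuclei (log axis) by the summed UMIs of the 7 marker genes in a nucleus, with the CKO label (left) and the Control label (right); the dashed line marks the threshold of 5 UMIs. Most nuclei have 0 marker UMIs. In Control no nucleus lies between 7 and 32 UMIs, while in the library labelled CKO few nuclei lie between the low and the high range. Nuclei with 20 or more are more numerous in the library labelled CKO.

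The label ciliated was checked against 9 further markers that the rule did not use. All 9 were at least 2-fold higher in ciliated than in other nuclei over both libraries, with a summed level of 4781 CPM in ciliated against 96.9 CPM in other nuclei of the library labelled CKO, and 3030 against 57.1 CPM in Control. Tmem212, a gene of ciliated airway cells, was found in 140 of 147 CKO-labelled ciliated nuclei and 12 of 18 Control ciliated nuclei. After each nucleus was thinned to 1000 UMIs, Tmem212 was found in 50.3% of ciliated nuclei of the library labelled CKO (median depth before thinning 6405 UMIs), against 0.291% of its leukocyte-marked nuclei (2214 UMIs); in Control it was found in 33.3% of ciliated nuclei and in 0 of 299 leukocyte-marked nuclei, which allows up to 1.00%. Dnah9, an outer arm heavy chain, was found in 55.8% and 55.6% of thinned ciliated nuclei of the libraries labelled CKO and Control. The marker checks used RNA of the same nuclei that the rule had read, so they describe the nuclei and are no independent test of them.

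The Control nuclei with 5 to 9 marker UMIs stood apart from the rest. All 8 such nuclei of the library labelled CKO held UMIs of 3 to 5 of the 7 marker genes, whereas of the 6 Control nuclei 3 had all their marker UMIs from 1 gene (7 of Dnah5, 6 of Dnah3 and 6 of Rgs22) and 2 from 2 genes. Ciliary genes outside the rule, 236 genes of 9 structural lists, took 0.239 to 1.07% of nuclear-encoded UMIs in those 6 Control nuclei (median 0.329%), against 2.27 to 7.59% in the 12 Control nuclei with 10 or more marker UMIs (median 5.62%). In the library labelled CKO the medians were 1.49% with 5 to 9 marker UMIs and 5.82% with 10 or more. Other nuclei had a median of 0.229% in the CKO-labelled library and 0.200% in Control. In all, 146 of 147 CKO-labelled and 13 of 18 Control ciliated nuclei lay above the 99th percentile of other nuclei of their library. Several comparisons of gene lists and single genes between genotypes are therefore also given for nuclei with at least 10 marker UMIs. The others include the low Control nuclei.

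Nearly all counted genes of the axoneme were higher in ciliated nuclei. Of 231 ciliary list genes with at least 20 UMIs, 219 were at least 2-fold higher in ciliated than in other nuclei over both libraries and 4 at least 2-fold lower, with a median log2 ratio of 4.70; over all 17803 genes, 18.1% were at least 2-fold higher and 22.7% lower, with a median of -0.04. The list summed to 49999 CPM in ciliated against 2528 CPM in other nuclei of the library labelled CKO, and to 31151 against 2209 CPM in Control. The remaining 5 of the 236 genes had too few UMIs to be counted, and 7 had none in ciliated nuclei of the library labelled CKO and 28 none in those of Control.

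Among motor genes, the outer arm heavy chain Dnah9 had 1009 CPM in ciliated nuclei of the library labelled CKO against 6.85 CPM in other nuclei, and 856 against 2.54 CPM in Control, a log2 ratio of 7.76 over both (7.54 to 7.98). Dnah11, another outer arm heavy chain, had 815 against 9.27 CPM in the library labelled CKO and 537 against 6.41 CPM in Control. The heavy chain Dnah17, which is used by sperm flagella, went the other way, with 3 UMIs in ciliated nuclei of the library labelled CKO, 0 in Control and a log2 ratio over both of -1.32. All 7 inner arm heavy chains outside the rule were at least 2-fold higher (median log2 ratio 6.55), as with Dnah7c at 749 against 5.13 CPM in the library labelled CKO and 588 against 5.08 CPM in Control. Of 21 intermediate chain, light chain and docking genes, 20 were higher (median 6.14), and so were all 15 cytoplasmic factors that preassemble dynein arms (median 4.00). Dnaic1, an outer arm intermediate chain, had 172 against 1.16 CPM in the library labelled CKO and 151 against 0.29 CPM in Control.

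Genes that control the beat were higher as well. Of 27 radial spoke and central pair genes outside the rule, 25 were at least 2-fold higher (median log2 ratio 6.53), as were all 14 of the nexin-dynein regulatory complex (median 6.71). Spef2, a central pair protein, had 1075 against 4.15 CPM in ciliated and other nuclei of the library labelled CKO, and 714 against 2.08 CPM in Control. Hydin, whose loss leaves the central pair incomplete, had 661 against 4.24 CPM in the library labelled CKO and 529 against 1.87 CPM in Control. The 83 counted genes of cilia- and flagella-associated and inner microtubule proteins held 81 that were higher (median 6.16). Cfap65 among them had 486 against 0.56 CPM in the library labelled CKO and 269 against 0.17 CPM in Control, a log2 ratio of 10.35 over both.

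Genes that primary cilia also use differed by less. Of 31 intraflagellar transport genes, 29 were at least 2-fold higher with a median log2 ratio of 2.37, and of 32 BBSome and transition zone genes 28 were higher with a median of 2.39. Dync2h1, the motor of retrograde transport, had 658 CPM in ciliated against 86.0 CPM in other nuclei of the library labelled CKO, and 437 against 102 CPM in Control. Bbs9, a BBSome subunit, had 471 against 67.4 CPM in the library labelled CKO and 369 against 68.4 CPM in Control. In other nuclei the 2 lists summed to 694 and 600 CPM in the library labelled CKO.

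**Figure D2:**
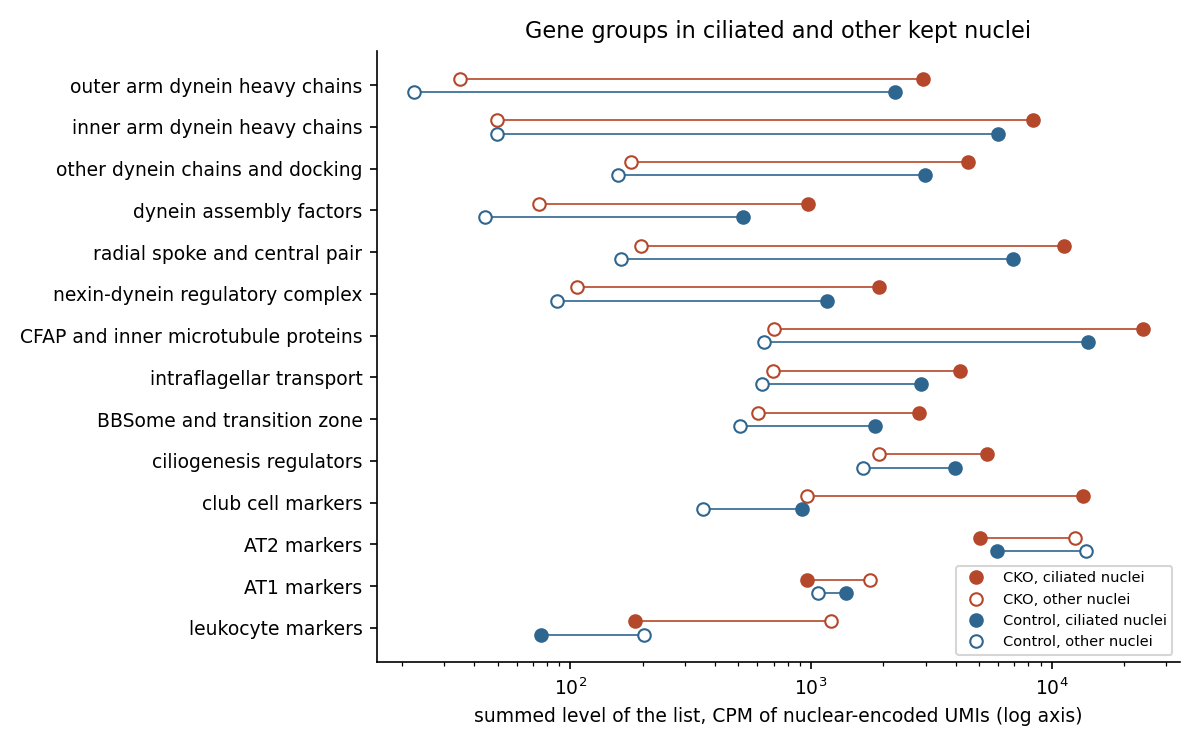
Summed level of each gene list in CPM of nuclear-encoded UMIs (log axis) for ciliated nuclei (filled) and other nuclei (open) of the libraries labelled CKO (red) and Control (blue). The heavy chain, radial spoke and CFAP lists include the genes of the rule. Ciliated nuclei lie to the right for every axoneme list, and AT2 and leukocyte markers lie to the left in ciliated nuclei of both libraries.

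The transcription factors of the program were present at lower counts. Foxj1 had 215 CPM in ciliated nuclei of the library labelled CKO (193 UMIs in 89 of 147 nuclei) against 2.70 CPM in other nuclei, and 92.3 CPM in Control ciliated nuclei (11 UMIs in 4 of 18) against 0.50 CPM, a log2 ratio over both of 7.03 (6.63 to 7.44). Thinned to 1000 UMIs, Foxj1 was found in 18.4% of ciliated nuclei of the library labelled CKO against 0.466% of its leukocyte-marked nuclei, and in 0 of 18 Control ciliated nuclei, which allows up to 16.7%. Rfx3 had 925 against 151 CPM in the library labelled CKO and 705 against 178 CPM in Control, a log2 ratio of 2.44. Rfx2 had a log2 ratio of 2.15, while Rfx7 at 0.10 was nearly level. Trp73, a p53 family member needed for multiciliated cells, had 128 against 1.58 CPM in the library labelled CKO and 33.6 against 0.33 CPM in Control. Of 48 counted regulator and basal body genes, 32 were at least 2-fold higher and 1 lower, against 18.1% and 22.7% of all genes, with a median of 1.55.

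Genes of the early, centriole-amplifying stage had few UMIs. Deup1, a deuterosome scaffold, had 70 UMIs in 37 of 147 ciliated nuclei of the library labelled CKO and 0 in the 18 of Control. It was 3.10-fold higher with Control set at a floor of 3 counts, a fold that leaves out the counting error of the CKO-labelled count. The 4 nuclei with 14, 6, 5 and 5 Deup1 UMIs held 42.9% of that total, and their ciliary list shares ran from 3.20 to 9.21% of nuclear-encoded UMIs, within the range of the other ciliated nuclei. Myb, which acts early in multiciliogenesis, had 166 UMIs in 78 nuclei of the library labelled CKO and 15 UMIs in 6 nuclei of Control. Cdc20b had 24 UMIs and Gmnc 18 in the library labelled CKO, and both had 0 in Control. Mcidas, which encodes multicilin, had 3 UMIs and Ccno 4 in the library labelled CKO, at most a few molecules in the whole group. In Control, 6 of the 7 genes of this stage had 0 UMIs in ciliated nuclei, at a depth at which 25.2 CPM would still be missed. The 7 summed to 325 CPM in the library labelled CKO and 126 CPM in Control, a log2 ratio of 1.37 (0.62 to 2.23). With at least 10 marker UMIs it was 0.68 (-0.06 to 1.54).

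Several further genes were nearly absent from other nuclei. Zfp474 had 437 against 0.56 CPM in the library labelled CKO and 235 against 0.12 CPM in Control (log2 ratio 10.29). Sntn, which encodes sentan of the ciliary tip, had 135 against 0.28 CPM in the library labelled CKO and 42.0 against 0 CPM in Control (9.88). Cdhr3, the receptor of rhinovirus C in human airway, had 809 against 1.82 CPM in the library labelled CKO and 529 against 0.62 CPM in Control (9.35). Zbbx (9.75), Odf3b (9.86), Fam216b (9.58), Spata18 (9.30), Asb14 (9.15) and Ccdc170 (9.04) followed. Among 19 counted xenobiotic and redox enzyme genes 12 were at least 2-fold higher and 0 lower (median 1.53), against 18.1% and 22.7% of all genes. Cyp2s1, a cytochrome P450, had 416 against 3.63 CPM in the library labelled CKO and 260 against 0.92 CPM in Control. Aldh1a1, which makes retinoic acid, had 830 against 32.8 CPM in the library labelled CKO and 646 against 9.24 CPM in Control. Of 18 counted prostaglandin genes, 2 were at least 2-fold higher (11.1%, against 18.1% of all genes) and 9 lower (against 22.7% of all genes). The list was thus not raised as a set, though Pla2g4a, the phospholipase that frees arachidonic acid, had a log2 ratio of 2.69. The 24 nuclear-encoded respiratory chain genes were level, with 0 past 2-fold either way and a median of 0.05.

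AT2 genes were lower in ciliated nuclei than in other nuclei. Of 12 AT2 markers 9 were at least 2-fold lower and 0 higher, against 22.7% and 18.1% of all genes. They summed to 5044 CPM in ciliated against 12554 CPM in other nuclei of the library labelled CKO, and 5910 against 13919 CPM in Control. Leukocyte-marked nuclei had 7425 CPM of this list, which holds Lyz2, a gene that macrophages also express, in the library labelled CKO and 9393 CPM in Control. Sftpc, surfactant protein C, had 23 UMIs (25.6 CPM) in the library labelled CKO and 5 (42.0 CPM) in Control, against 102 and 81.1 CPM in other nuclei. Sftpb, surfactant protein B, was found in 49.7% of thinned ciliated nuclei of the library labelled CKO, against 61.1% of leukocyte-marked nuclei. The source of this RNA in ciliated nuclei was not tested. All 5 leukocyte markers were at least 2-fold lower, with sums of 186 against 1213 CPM in the library labelled CKO and 75.5 against 202 CPM in Control. Still, 16 CKO-labelled and 1 Control ciliated nuclei held at least 3 UMIs of leukocyte or of endothelial markers. All 5 neuroendocrine genes had 0 UMIs in ciliated nuclei of both libraries. Of 6 basal cell genes, Krt5 among them, 4 had 0 UMIs in ciliated nuclei of the library labelled CKO. The 6 summed there to 15 UMIs (16.7 CPM), against 6.20 CPM in other nuclei. In Control ciliated nuclei all 6 were at 0, against 3.37 CPM in other nuclei.

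Secretory genes of club cells were high in a fraction of CKO-labelled ciliated nuclei. Scgb1a1, the main secretoglobin of club cells, had 11851 CPM in ciliated against 803 CPM in other nuclei of the library labelled CKO, and 554 against 220 CPM in Control. It was spread unevenly: the median nucleus of the library labelled CKO held 8 Scgb1a1 UMIs and the highest 1008, while the median Control nucleus held 1 and the highest 30. In 31 of 147 CKO-labelled ciliated nuclei (21.1%, 14.8 to 28.6%) the 6 club genes took at least 1% of nuclear-encoded UMIs, a threshold set after seeing the data, against 0 of 18 in Control, which allows up to 16.7% by a floor of 3 counts, with an exact upper bound of 18.5%. Among other nuclei the same threshold was passed by 50 of 7982 in the library labelled CKO (0.626%) and 22 of 7326 in Control (0.300%), and among leukocyte-marked nuclei by 7 of 2043 (0.343%) and 1 of 357 (0.280%). Over all thinned nuclei of each kind, Scgb1a1 was found in 71.4% of ciliated and 37.3% of leukocyte-marked nuclei of the library labelled CKO, and in 22.2% and 8.36% in Control.

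The 31 club-rich nuclei held 88.9% of all Scgb1a1 UMIs of CKO-labelled ciliated nuclei. Secretory genes that the threshold did not use were also higher there: Scgb3a1, a secretoglobin of secretory cells, had 1169 CPM in the 31 club-rich against 17.4 CPM in the 116 other ciliated nuclei, and Muc5b, a gel-forming mucin, 166 against 17.4 CPM. Both rested on few nuclei, since 3 club-rich nuclei held 301 of the 309 Scgb3a1 UMIs, leaving 33.8 CPM in the remaining 28, and 1 nucleus held 26 of the 44 Muc5b UMIs. The ciliary list had a median share of 4.25% of nuclear-encoded UMIs in club-rich against 6.10% in the other ciliated nuclei, and Foxj1 at 197 against 223 CPM. Sox2, a transcription factor of airway epithelium, had 83.2 against 63.2 CPM. Club-rich nuclei were also deeper, with a median of 10954 UMIs against 5473.5. Doublets were not removed, and a nucleus that holds both programs and a droplet that holds a ciliated and a club nucleus cannot be told apart here. Nuclei outside the ciliated rule that passed the same threshold in the library labelled CKO had 40297 CPM of Scgb1a1, with 0.290% of UMIs in the ciliary list and a median depth of 3720 UMIs.

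**Figure D3:**
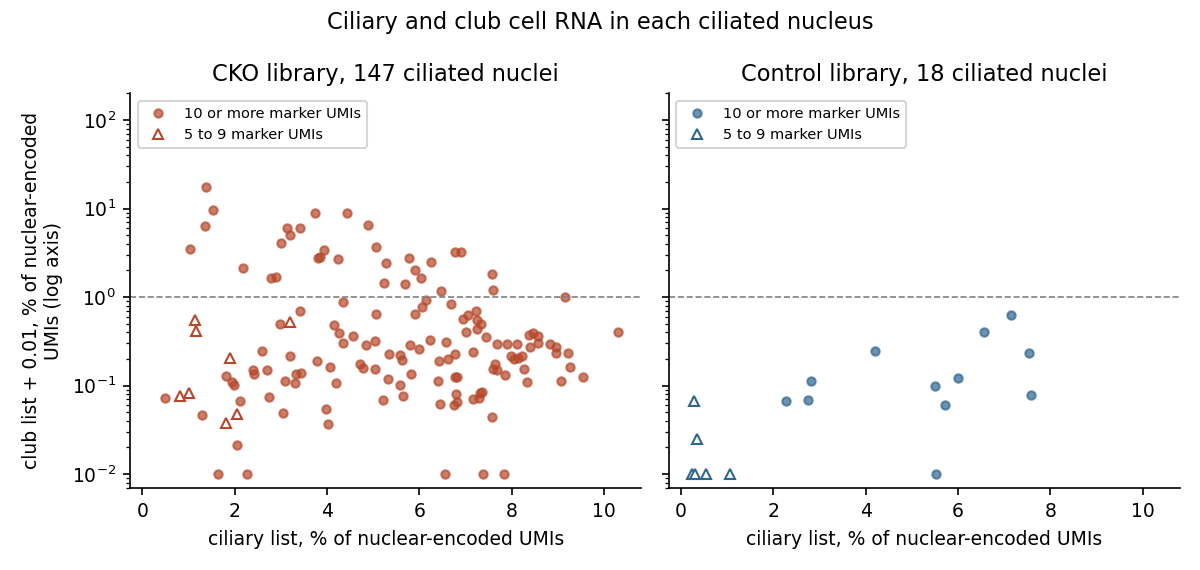
Share of nuclear-encoded UMIs in the 6 club genes (plus 0.01, log axis) against the share in the ciliary list for each ciliated nucleus of the libraries labelled CKO (left, 147 nuclei) and Control (right, 18). The dashed line marks 1% club UMIs, which 31 CKO-labelled nuclei and 0 Control nuclei pass; triangles are nuclei with 5 to 9 marker UMIs, which in Control lie at the low end of the ciliary share.

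Open chromatin of the same nuclei was not used to choose them. Peaks within 1000 bases of a start of the 236 ciliary genes took 0.753% of peak counts in ciliated against 0.624% in other nuclei of the library labelled CKO, a log2 ratio of 0.27 (0.23 to 0.31), and leukocyte-marked nuclei had 0.673%. In Control the share was 0.771% in ciliated against 0.679% in other nuclei, a log2 ratio of 0.18 (0.04 to 0.32), while leukocyte-marked nuclei had 0.765%, close to the ciliated share. Nuclei with 10 or more marker UMIs gave 1.21-fold in both libraries (1.17 to 1.24 in the library labelled CKO, 1.08 to 1.36 in Control). Those with 5 to 9 gave 1.18-fold in the library labelled CKO (1.03 to 1.35) and 0.955-fold in Control (0.780 to 1.16). The low Control value rested on 1 nucleus, which held 13982 of the 16048 peak counts and 94 of the 104 promoter counts. That nucleus also held 9 UMIs of leukocyte markers, so the value says little of the other low Control nuclei. Among Control nuclei with 10 or more marker UMIs, 1 nucleus held 14690 of the 37421 peak counts and 125 of the 308 promoter counts. Per nucleus the shift was small: 96 of 127 CKO-labelled ciliated nuclei with at least 500 peak counts, and 8 of 15 in Control, lay above the median of other nuclei.

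The excess differed between lists. In the library labelled CKO, promoter counts of inner arm heavy chains had a log2 ratio of ciliated over other nuclei of 1.29 (0.93 to 1.62), outer arm heavy chains 0.96 (0.42 to 1.46), radial spoke and central pair genes 0.82 (0.68 to 0.95) and cilia- and flagella-associated genes 0.46 (0.38 to 0.53). Dynein intermediate, light and docking chains had 0.25 (0.12 to 0.38), the nexin-dynein regulatory complex 0.14 (-0.01 to 0.28) and dynein assembly factors 0.07 (-0.07 to 0.21), although 20 of 21, 14 of 14 and 15 of 15 of these genes were at least 2-fold higher in RNA. Intraflagellar transport genes had 0.18 (0.09 to 0.28) and BBSome and transition zone genes -0.03 (-0.14 to 0.07). Control had far fewer counts, and its intervals overlapped too widely to give an order. Outer arm heavy chains had 1.15 there (-0.73 to 2.51, from 4 counts) and inner arm heavy chains -0.51 (-3.55 to 1.35, from 2 counts). Intraflagellar transport genes had 0.47 (0.17 to 0.76), cilia- and flagella-associated genes 0.33 (0.06 to 0.59) and radial spoke and central pair genes 0.33 (-0.22 to 0.84). The nexin-dynein regulatory complex had 0.27 (-0.24 to 0.73) and BBSome and transition zone genes -0.05 (-0.40 to 0.28). Dynein intermediate, light and docking chains had -0.38 (-0.98 to 0.16) and dynein assembly factors -0.57 (-1.23 to 0.01). In the CKO-labelled library, club gene promoters had 1.13 (0.70 to 1.53), AT2 gene promoters -0.34 (-0.57 to -0.13) and leukocyte gene promoters -0.68 (-1.32 to -0.12). Gene by gene, 52 of 219 ciliary promoters were at least 2-fold higher in ciliated nuclei of the library labelled CKO and 10 lower, against 8.33% and 13.8% of 18334 promoters.

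The promoter of Foxj1 was not among them. It had 30.1 peak CPM (CPM taken over all peak counts) in ciliated against 28.7 in other nuclei of the library labelled CKO, a ratio of 1.05 (0.637 to 1.63), although its RNA differed widely. Among the genes of the rule, Rgs22 had 10 counts in ciliated against 35 in other nuclei (11.7-fold, 5.17 to 24.2) and Dnah6 51.1 against 27.7 peak CPM (1.85-fold, 1.27 to 2.61), while Cfap44 had 9.02 against 9.79 peak CPM (0.921-fold, 0.34 to 2.03). Spag17 had 3 counts in ciliated nuclei. Dnah12, Dnah3 and Dnah5 had no peak within 1000 bases of a start as the files give it. A peak of 22 ciliated and 56 other counts (16.1-fold, 9.36 to 26.8) lay at chr14:26691093-26691947, upstream of that Dnah12 start by 1327 bases and over the start that RefSeq gives. Of the 4 other ciliary promoters with the most counts, Ift140 had 132 against 81.3 peak CPM (1.63-fold, 1.30 to 2.01), Hspb11 78 against 2453 counts (1.30-fold, 1.03 to 1.63), and Ccdc96 and Tsnaxip1 were level within their intervals at 1.20-fold and 1.19-fold. Control gave 0 to 6 counts at each of these 4 promoters in ciliated nuclei. Few ciliary promoters could be compared there, among them Kifap3, a subunit of the anterograde transport motor, with 16 counts in Control ciliated and 1642 in other nuclei (4.00-fold, 2.28 to 6.51), against 1.28-fold (0.909 to 1.75) in the CKO-labelled library.

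Some ciliary promoters differed far more, and were chosen after their values were seen. Sntn had 13 counts in ciliated and 12 in other nuclei of the library labelled CKO, or 19.5 against 0.44 peak CPM (44.4-fold, 18.7 to 106). Ccdc170 had 28.6 against 1.10 peak CPM (26.0-fold, 13.8 to 47.7) and Spag16, a central pair gene, 16.5 against 0.70 (23.7-fold, 10.2 to 52.5). Cfap161 had 10 counts against 29 (14.1-fold), Iqca had 21.1 against 1.83 peak CPM and Ak7, an adenylate kinase of the axoneme, 33.1 against 4.81. Sox2 had 40.6 against 4.36 peak CPM, Deup1 16.5 against 3.45 and Scgb1a1 12 counts against 66 (7.45-fold), whereas the Sftpc promoter had 0 counts in ciliated nuclei against 12.9 peak CPM in others. Among peaks with at least 20 ciliated counts in the CKO-labelled library, ranked by the lower bound of the ratio, the first, 69.9-fold with 29 against 17 counts, lay at chr17:7246833-7247791, 76718 bases from the nearest gene start. The second, 68.3-fold with 20 against 12 counts, lay at the start of Myo1h at chr5:114288659-114289558. Of the 100 highest peaks, 22 lay within 1000 bases of a gene start and 4 at ciliary genes.

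**Figure D4:**
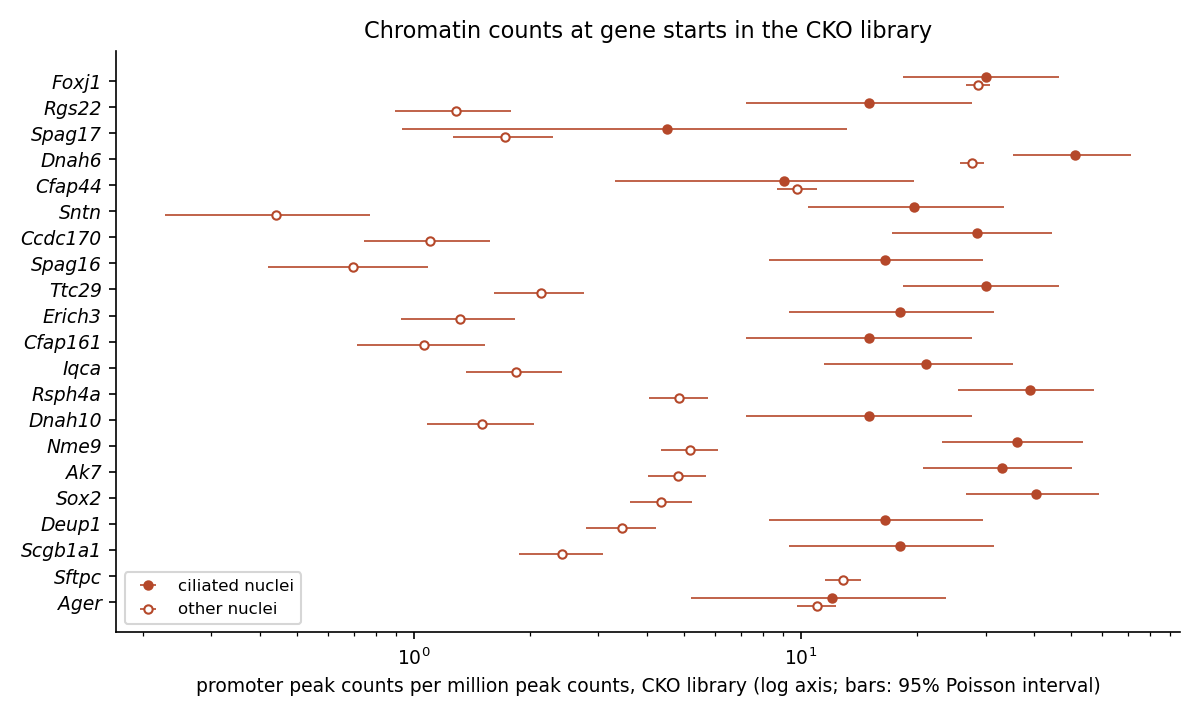
Promoter counts in peak CPM (log axis) in ciliated nuclei (filled) and other nuclei (open) of the library labelled CKO, with 95% Poisson intervals; Sftpc had 0 counts in ciliated nuclei and so has no filled point. Foxj1 and Cfap44 overlap between the groups, while Sntn, Ccdc170 and Spag16 show wide gaps.

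Promoter sequences of these genes are printed to show what their 5′ regions hold, 5′ to 3′ on the strand of the gene, from the RefSeq promoter table of build GRCm38.p6. Capitals mark the RFX-type 6-base site GTTGCC, or GGCAAC as read on the other strand, and the forkhead core TGTTTAC, or GTAAACA as read on the other strand, the letters that RFX and forkhead factors such as FOXJ1 are known to bind. Sntn lies at chr14:13670626-13670845 (plus strand), Ccdc170 at chr10:4482407-4482497 (plus), Spag16 at chr1:69826829-69826902 (plus), Cfap161 at chr7:83794843-83794935 (minus), Iqca at chr1:90153501-90153566 (minus), Ak7 at chr12:105705821-105705887 (plus), Cfap44 at chr16:44394640-44394798 (plus), Ift140 at chr17:25015947-25016012 (plus) and Tsnaxip1 at chr8:105827703-105827743 (plus).
Sntn: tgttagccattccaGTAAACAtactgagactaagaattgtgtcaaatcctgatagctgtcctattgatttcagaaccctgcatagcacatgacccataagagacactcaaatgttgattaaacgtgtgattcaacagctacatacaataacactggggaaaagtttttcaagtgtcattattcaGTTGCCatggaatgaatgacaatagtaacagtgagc
Ccdc170: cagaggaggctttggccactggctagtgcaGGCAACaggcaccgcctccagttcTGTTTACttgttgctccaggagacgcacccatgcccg
Spag16: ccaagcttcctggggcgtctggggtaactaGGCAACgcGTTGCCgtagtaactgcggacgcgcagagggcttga
Cfap161: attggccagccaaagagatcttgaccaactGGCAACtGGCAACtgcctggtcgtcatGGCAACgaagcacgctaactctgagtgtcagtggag
Iqca: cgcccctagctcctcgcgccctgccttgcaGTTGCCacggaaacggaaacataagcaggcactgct
Ak7: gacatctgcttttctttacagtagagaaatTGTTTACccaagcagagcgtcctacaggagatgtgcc
Cfap44: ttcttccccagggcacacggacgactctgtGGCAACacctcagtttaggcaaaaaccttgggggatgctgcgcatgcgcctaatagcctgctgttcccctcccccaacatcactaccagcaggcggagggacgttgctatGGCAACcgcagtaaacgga
Ift140: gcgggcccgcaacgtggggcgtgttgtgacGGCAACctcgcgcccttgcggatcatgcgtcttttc
Tsnaxip1: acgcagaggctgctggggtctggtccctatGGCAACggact

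Sntn and Ccdc170 held both motifs, Spag16 held GTTGCC on both strands 2 bases apart, and Cfap161 held it 3 times. Cfap44 and Tsnaxip1, whose promoter counts did not differ beyond their intervals, also held it. In the 250 bases before the start, GTTGCC on either strand was found in 64 of 214 promoters of 194 ciliary genes in the table (29.9%), against 10.4% of 32851 promoters of all genes. It was found in 22 of 49 ciliary promoters whose counts were at least 2-fold higher in ciliated nuclei of the library labelled CKO (44.9%) and in 38 of 148 of those under 2-fold (25.7%). By list, the nexin-dynein regulatory complex had 8 of 11, cilia- and flagella-associated genes 28 of 81 and BBSome and transition zone genes 4 of 36; AT2 genes had 1 of 10 and club genes 0 of 2. The forkhead core was found in 9 of the 214 ciliary promoters (4.21%), against 3.17% of all promoters. These letters do not overlap between the motifs, and a match describes the sequence alone. The windows of Dnah12, Spag17, Dnah6 and Dnah5 held neither motif.

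Between genotypes, ciliated nuclei of the library labelled CKO had more ciliary RNA than those of Control with the rule as given, and nearly the same with the low nuclei left out. The ciliary list summed to 49999 CPM in the library labelled CKO and 31151 CPM in Control, a log2 ratio of 0.68 (0.63 to 0.73). With at least 10 marker UMIs it summed to 51167 CPM in the library labelled CKO and 48653 CPM in Control, a log2 ratio of 0.07 (0.02 to 0.12). Of 207 list genes counted, 80 were at least 2-fold higher and 0 lower in the library labelled CKO, with a median log2 ratio of 0.83, against 25.3% higher and 4.77% lower among 7541 genes with a median of 0.33. With at least 10 marker UMIs, 36 of 206 were higher and 2 lower with a median of 0.22, against 30.1% and 3.61% of 7262 genes with a median of 0.41. Other nuclei had a median of 0.50 over the same 7541 genes.

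Club genes differed widely between genotypes. They summed to 13553 CPM in ciliated nuclei with the CKO label and 915 CPM in Control, a log2 ratio of 3.89 (3.62 to 4.17), which was 3.36 (3.07 to 3.66) with at least 10 marker UMIs and 1.44 in other nuclei. Scgb1a1 had a log2 ratio of 4.42 (4.07 to 4.79). The 116 CKO-labelled nuclei under the club threshold, at 1868 CPM against 554 CPM in the 18 of Control, gave 1.75 (1.395 to 2.13). Other nuclei also held more Scgb1a1 with the CKO label, at the levels given above. Scgb3a2, a further secretoglobin, had 2.98 (1.99 to 4.20), and -0.41 (-1.56 to 0.92) under the threshold. Under it Cyp2f2, another club gene, had 0.28 (-0.46 to 1.11) and Scgb3a1 -1.27 (-2.92 to 0.60). Scgb3a1 had 3.09 (1.85 to 4.72), but without the 3 CKO-labelled nuclei that held most of it the ratio turned to -0.94 (-2.41 to 0.83). Xenobiotic and redox genes had a summed log2 ratio of 0.95 (0.76 to 1.15), or 0.42 (0.22 to 0.63) with at least 10 marker UMIs, and 0.83 in other nuclei. Fmo2, a flavin monooxygenase, had 237 CPM in the library labelled CKO and 25.2 CPM in Control. Nuclear-encoded respiratory chain genes had 0.81 (0.49 to 1.15), and 0.70 in other nuclei.

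Beside the secretoglobins, the highest genes of the library labelled CKO were Retnla, a secreted resistin-like protein, with 928 UMIs in the CKO-labelled library and 3 in Control (log2 ratio 5.36, 3.81 to 7.64), Ubac2 with 124 and 1 (4.04, 1.54 to 9.36), Selenbp1 with 488 and 9 (2.85), Tpt1 with 465 and 12 (2.36) and Cp, the copper carrier ceruloplasmin, with 1153 and 36 (2.09). Plxdc2 had 94 UMIs in the CKO-labelled library and 0 in Control, 4.16-fold higher with Control set at a floor of 3 counts. That fold leaves out the counting error of the CKO-labelled count. Other nuclei differed the same way for each, with log2 ratios of 1.17 for Retnla, 0.55 for Ubac2, 1.39 for Selenbp1, 1.24 for Tpt1, 0.54 for Cp and 0.95 for Plxdc2. Markers of some other cells were also higher in CKO-labelled ciliated nuclei. The 5 leukocyte markers summed to 186 CPM in the CKO-labelled library and 75.5 CPM in Control, where 2 of the 5 were at 0 and 1 nucleus held all 9 UMIs. The 5 endothelial markers summed to 82.4 and 8.39 CPM, with 4 of the 5 at 0 in Control. Of the 74 CKO-labelled endothelial UMIs 45 lay in 1 nucleus, without which 32.9 CPM remained. The 5 neutrophil markers summed to 131 and 0 CPM, with all 5 at 0 in Control. In other nuclei the leukocyte, endothelial and neutrophil lists had log2 ratios of 2.58, 2.36 and 5.14. Fibroblast markers were level within counting error in ciliated nuclei, at 0.25 (-0.48 to 1.06), and so were tuft cell markers at -0.26 (-1.19 to 0.80). The part of other cells in these differences was not tested.

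The lowest genes rested in part on the low Control nuclei. Ndnf had 92 UMIs in the CKO-labelled library and 96 in Control (log2 ratio -2.98), but 50 of the 96 came from 1 nucleus and none from Control nuclei with 10 or more marker UMIs. Itgb6, an integrin subunit, had a log2 ratio of -2.32 (-2.84 to -1.79), and -0.24 (-1.35 to 1.13) with at least 10 marker UMIs. Lhfp had -2.61, and -0.72 (-2.23 to 1.25) there. Timp3, an inhibitor of matrix metalloproteases, had 287 CPM in the library labelled CKO and 1754 CPM in Control, with -2.61 (-2.88 to -2.34) and -2.92 (-3.22 to -2.62) with at least 10 marker UMIs, though 3 nuclei held 178 of its 209 Control UMIs, without which the ratio was -0.12 (-0.66 to 0.47). Lsmem1 (-3.91), Slc1a3 (-2.80), Msrb3 (-2.42), Cmss1 (-1.88) and Cdk8 (-1.83) were also among the lowest, and in other nuclei had -3.63, -1.69, -0.46, -1.71 and -1.48. Without the 3 Control nuclei with the most UMIs of each gene, Slc1a3 had 0.27 (-1.73 to 3.39) and Msrb3 -0.41 (-1.55 to 0.97). Lsmem1 then had -1.76 (-3.16 to -0.14), Cmss1 -1.44 (-1.56 to -1.32) and Cdk8 -1.19 (-1.41 to -0.95). AT1 markers, genes of flat alveolar type 1 cells, summed to 965 CPM in the library labelled CKO and 1393 CPM in Control, a log2 ratio of -0.53 (-0.77 to -0.28) that turned to 0.97 (0.48 to 1.51) with at least 10 marker UMIs and to 0.41 (0.07 to 0.76) without the 1 Control nucleus that held 88 of the 166 Control UMIs. Sema3a had -2.33, with 0 UMIs in Control nuclei of 10 or more marker UMIs.

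Genes of the study's stated pathway, JUN and p53, were also compared in ciliated nuclei. The 11 subunits of AP-1, the transcription factor that JUN forms, summed to 1487 CPM in ciliated nuclei with the CKO label and 2057 CPM in Control, a log2 ratio of -0.47 (-0.67 to -0.27), with -0.50 (-0.75 to -0.25) at 10 or more marker UMIs and -0.89 in other nuclei. In Control, 3 nuclei held 106 of the 245 AP-1 UMIs. Without those 3 the log2 ratio was -0.08 (-0.34 to 0.18). Without the 3 CKO-labelled nuclei with the most AP-1 UMIs it was -0.59 (-0.79 to -0.38). Leaving out the nuclei with the most UMIs tends to lower that library's level, so the direction of each shift was largely set in advance. The 3 nuclei were also a larger part of the 18 in Control than of the 147 with the CKO label, so the shifts are not alike. Jun had 247 CPM in the library labelled CKO and 353 CPM in Control (-0.51, -0.99 to 0.00). Atf3, a stress-induced partner, had 154 and 403 CPM in the libraries labelled CKO and Control (-1.39), and Fosb 180 and 420 CPM (-1.22), while Fos was level at 434 and 369 CPM (0.23, -0.22 to 0.72). The ratios of these genes too changed with few Control nuclei left out. Without the 3 that held the most UMIs of each, Atf3 had -0.58 (-1.23 to 0.14) and Fosb -0.33 (-0.98 to 0.39). Jun then had -0.21 (-0.81 to 0.45) and Fos 1.44 (0.75 to 2.24). Other nuclei held more AP-1 RNA in each library, 2327 CPM in the library labelled CKO and 4309 CPM in Control. Over both libraries 6 of 11 subunits were at least 2-fold lower in ciliated than in other nuclei and 0 higher, against 22.7% and 18.1% of all genes. Their median log2 ratio was -1.04. Trp53 itself had 4 UMIs in the CKO-labelled library and 2 in Control. With all ciliated nuclei counted, its targets Cdkn1a (101 and 58.8 CPM in the libraries labelled CKO and Control) and Mdm2 (394 and 336 CPM) did not differ beyond counting error. Nor did Krt8, a keratin of simple epithelium, at 280 and 218 CPM. The 22 genes of the p53 list had a summed log2 ratio of 0.34 (0.10 to 0.59), and 0.12 (-0.17 to 0.41) with at least 10 marker UMIs.

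**Figure D5:**
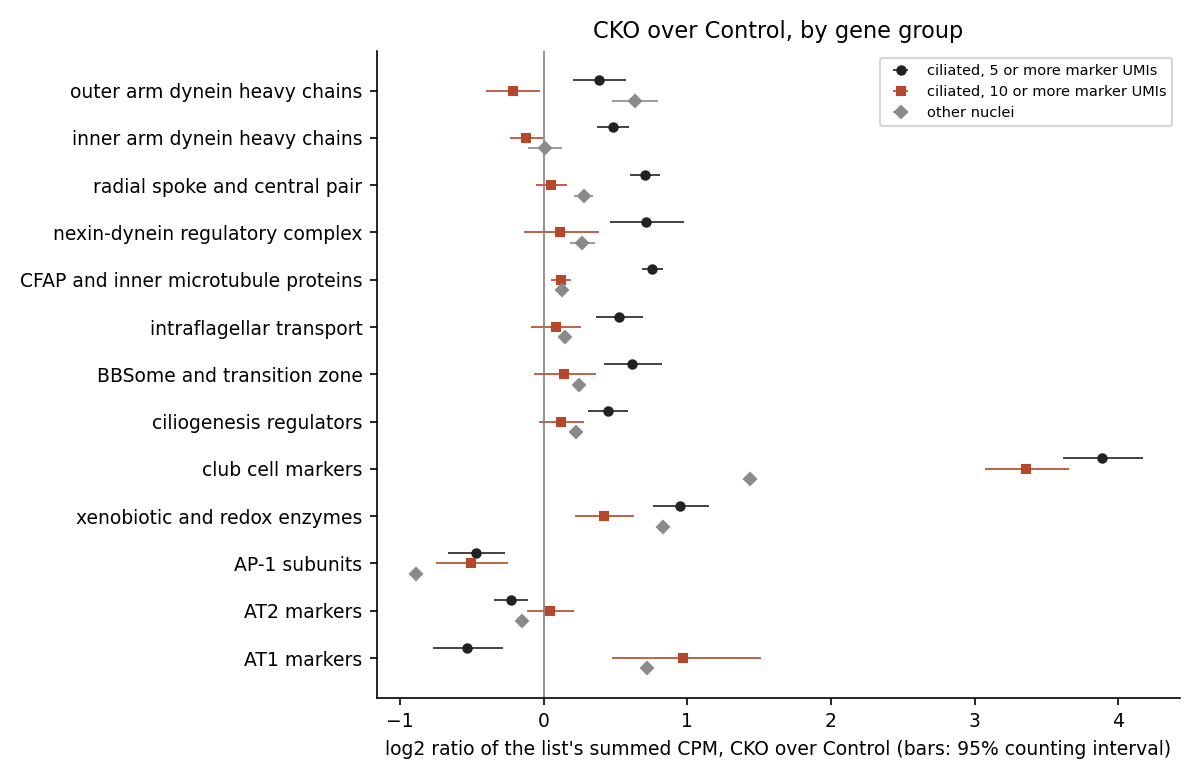
Log2 ratio of each list's summed CPM, CKO over Control, with 95% counting intervals, in ciliated nuclei with 5 or more marker UMIs (black circles), with 10 or more (red squares) and in other nuclei (grey diamonds). Heavy chain, radial spoke and CFAP lists include the genes of the rule. Axoneme lists lie above 0 with 5 or more marker UMIs and near 0 with 10 or more, club genes lie far above 0 in both, AP-1 lies below 0 in all 3, and AT1 markers change side.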

How the data were processed

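RNA and open chromatin were measured together in nuclei (10x multiome), with 4 deposited samples forming 2 libraries, 1 per genotype. The deposited values are raw counts, UMIs per gene and transposition counts per peak with no normalisation; per the file headers they were made with Cell Ranger ARC 2.0.1. The submitters' processing notes also name Seurat 4.1.0, Signac 1.6.0 and the builds GRCm38 and GRCm39 without saying for which step; the files' gene starts are those of GRCm38, so coordinates are in that build, counted from 1. Peaks differ between the 2 deposited peak lists (125793 in the library labelled CKO, 116075 in Control), so chromatin was compared only within a library. How barcodes were called as nuclei is not given in the sources used here.

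UMIs were summed over the ciliated nuclei of a library and scaled to CPM of nuclear-encoded UMIs (13 mitochondrial genes left out). The 95% intervals are exact: conditional-binomial for ratios, Clopper-Pearson for shares and Poisson for single levels, and a count of 0 was given a floor of 3 counts over the group. Nuclei of 1 library are not replicates, so intervals cover counting error only and no p-value is given. A gene was counted with at least 20 UMIs, a promoter with at least 20 peak counts within 1000 bases of a gene start as the files give it. Doublets were not removed. On simulated counts for 7541 genes of the comparison of genotypes in ciliated nuclei, intervals held the true value for 96.7% of unchanged genes, 95.6% of those changed 1.5-fold, 98.4% at 2-fold and 95.7% at 4-fold. The simulated sums were Poisson counts, the model that the intervals assume, so a share near 95% checks the computation only. The simulation left out the spread between nuclei, so it cannot show how the intervals hold where few nuclei carry a gene.

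The members and the 30 gene lists were chosen with earlier results of these data known. Genes named are 17 fixed genes, the list members with the most UMIs and the highest and lowest ratios between genotypes, and the genes ranked highest or lowest over all genes by the interval bound nearest 0, with at least 50 UMIs and gene models without a name left out. Sox2, Trp73, Rfx2, Mcidas, Ccno, Dnah17, Dnaic1, Myo1h, Kifap3 and the promoters with wide differences were chosen after their values were seen. Promoter sequences and motifs come from the RefSeq promoter table (GRCm38.p6), which held 194 of 236 ciliary genes. Computations used scipy 1.17.1 and numpy 2.4.6 with pandas 2.3.3 in Python 3.11.15, and figures matplotlib 3.10.9. Alternatives were 17 planned settings and 2 added after seeing the data, which left out club-rich nuclei or the 1 or 3 nuclei with the most UMIs of a gene or list. Leaving out the nuclei with the most UMIs tends to lower that library's level, so those values only show how far a ratio leaned on few nuclei.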

Additional observations from a re-analysis of the deposited data

Results flagged for a closer look

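In ciliated and other nuclei, some named genes differed between genotypes in opposite directions, with counting intervals that do not include 0 on either side; the difference between the 2 nuclear groups was not tested. In log2 of CKO over Control, Itgb6 had -2.32 in ciliated and 1.18 in other nuclei, Lhfp -2.61 and 0.21, Sema3a -2.33 and 0.37, Ndnf -2.98 and 1.08, Clic5 -1.09 and 1.29, Cldn18 -0.86 and 0.98, Vegfa -1.75 and 0.20 and Rfx7 -1.17 and 0.13. With at least 10 marker UMIs the ciliated value was -0.24 for Itgb6, -0.72 for Lhfp, -0.30 for Vegfa, 0.92 for Clic5 and 0.31 for Cldn18, while Rfx7 kept -0.96. In the other direction, Rsph14, a radial spoke gene, had 1.80 in ciliated and -0.88 in other nuclei, Dync2h1 0.59 and -0.25, Ak7 0.68 and -0.91 and Rfx3 0.39 and -0.24; with at least 10 marker UMIs their ciliated values were 1.12, 0.03, 0.00 and -0.19.

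Barcodes outside the filters also carried the markers. At least 5 marker UMIs were held by 35 further barcodes of the library labelled CKO and 8 of Control, and all of them had 30% or more mitochondrial UMIs.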

How the results depend on the processing

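The 7 results were recomputed under 18 settings; of 75 recomputed values 63 stayed within their tolerance (0.25 for a median log2 ratio, 1.5-fold for a count, and the counting interval of the reported value for shares and promoter ratios), 12 moved and 0 reversed. The ciliated share, 1.81% with the CKO and 0.245% with the Control label, was 0.586% in Control with a marker sum of at least 3 UMIs, and in the library labelled CKO 1.32% with a mitochondrial share under 20% and 1.52% with every nucleus thinned to 1000 UMIs. The median log2 ratio of the ciliary list between genotypes, 0.83, was 1.67 with at least 3 marker UMIs, 0.22 with at least 10, 1.12 with a mitochondrial share under 20%, 0.34 with a filter on peak counts (minimum 1000) and 0.55 under median-of-ratios scaling. That of the AP-1 list, -0.47, was -1.31 with at least 3 marker UMIs, -0.75 under median-of-ratios scaling, -0.73 as a mean of CPM per nucleus, and -0.88 without the 31 club-rich nuclei, an alternative chosen after seeing the data. The count of 219 ciliary genes stayed within 1.5-fold. The Control promoter log2 ratio, 0.18, is the least firm: it was 0.10 with at least 3 marker UMIs, and its interval took in 0 with a mitochondrial share under 20% (-0.12 to 0.57) and with a wider promoter window (-0.002 to 0.277). The cause was not tested. No paired analysis was possible because each genotype has 1 library. Depth limits most of all the 18 Control ciliated nuclei, whose 53469 peak counts allow few comparisons gene by gene. Of these counts 1 nucleus held 14690 and another 13982, so Control chromatin values lean on few nuclei.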
